A study of Mus musculus with 6 samples.

Results

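The tight and gap junction genes of the early mouse lens ectoderm were examined on 6 Illumina bead arrays, 3 of Pax6-/- surface ectoderm and 3 of wild type lens placode. Both tissues were laser-microdissected at embryonic day 9.5 from a mixed FVB and 129 background, out of frozen sections of 10 µm. Members were the genes whose platform symbol named a claudin other than Cldn5, a connexin of the Gja to Gjd groups, a zonula occludens protein (Tjp) or a nectin, together with Ocln, Marveld2, Marveld3, F11r, Cgn and Cgnl1. This gave 46 genes of the 19057 that had 1 symbol on the platform, and 25 of them were measured, meaning that a probe had a detection p under 0.05 on at least 3 of the 6 arrays. RNA of 3 embryos per genotype was pooled before 3 samples were amplified per genotype, per the labels, so the p-values measure only the spread between these samples, which may be technical. The allele of Pax6 and the part of the gene it lacks are not stated in the labels.

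Tight junctions seal the space between epithelial cells near their apical side. Claudins and the occludin family form the sealing strands in the membrane, and scaffold proteins such as ZO-1 and cingulin tie the strands to the actin cytoskeleton. Gap junctions are channels built from connexins that let ions and small molecules pass between neighbouring cells, and the lens, which has no blood supply, relies on them for its metabolism. The lens placode is the thickened ectoderm that bends inward to form the lens vesicle, and Pax6 is a transcription factor needed for this step.

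Between 21062 and 22712 probes were detected on 5 of the arrays. Pax6-/- replicate 2 stood apart, with 17276 probes detected and correlations with the other arrays of 0.797 to 0.825, against 0.878 to 0.957 among the others. Its lowest detected signal was 5.39 on the log2 scale, against 4.79 to 4.90 elsewhere, so a dim gene could be listed as detected on another array and not on this one. Xist, the RNA of the inactive X chromosome, read 11.68 on this array and 4.63 to 4.90 on the other 5, although the labels describe pooled RNA for each genotype. Pax6 itself read 10.26, 10.79 and 10.31 on the Pax6-/- arrays, against 11.10, 11.07 and 11.17 on the wild type arrays. All Pax6-/- values lay below all wild type values, but the transcript stayed detected throughout, and a probe outside the deleted part would not check the labels. Of 12 markers of surface epithelium, 10 were measured, and Epcam, Cdh1, Krt8 and Krt18 were detected on all 6 arrays, while Krt19 was detected on 1.

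Most junction genes that these arrays could read did not separate the genotypes. No member passed limma's test at an adjusted p under 0.05, where 0.00912% of the 10967 measured genes and 0.0091% of the probes did, and the adjusted p-values of the members ran from 0.427 to 0.995. At an unadjusted p under 0.05 there were 2 of 25 members, Cldn11 and Marveld2, against 9.09% of all measured genes. In 4 members (16%) the Pax6-/- and wild type arrays did not overlap, where 17.5% of all measured genes had no overlap. Cldn11 was the 1 member of these that was higher on every Pax6-/- array, against a background of 7.21%, and Gja1, Cldn12 and Tjp1 were the 3 that were lower, against a background of 10.3%. The members' shares were near these backgrounds and are given as a description. The median log2 difference of the members, Pax6-/- minus wild type, was 0.07, with 13 positive and 12 negative values, and that of all measured genes was -0.07.

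**Figure D1:**
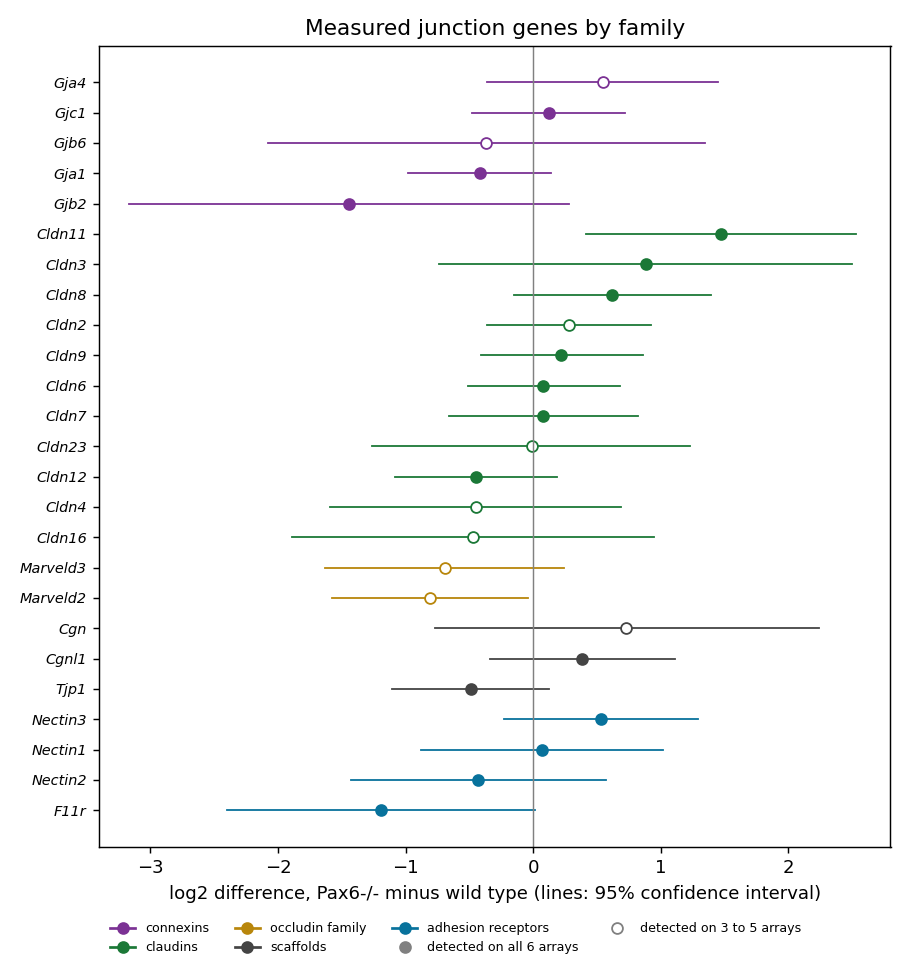
Log2 difference, Pax6-/- minus wild type, of the 25 measured junction genes, grouped by family, with 95% confidence intervals from the limma fit as lines. Filled points were detected on all 6 arrays and open points on 3 to 5, and Cldn11 at 1.47 and Gjb2 at -1.44 lie farthest from 0.

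Detection differed by family. Of 15 connexins 5 were measured and 8 were detected on no array, among them Gja3, a connexin of differentiated lens fibres, and Gjb1 and Gjd2. Of 19 claudins 11 were measured and 5 were detected on no array, namely Cldn13, Cldn14, Cldn17, Cldn18 and Cldn19. Ocln, the gene of occludin and a usual marker of tight junctions, was represented by 1 probe that was detected on none of the 6 arrays. Tjp3, which encodes ZO-3, and Nectin4 were likewise detected on none. An undetected probe gives no level for its gene. The number of members with any detected probe was 21, 20 and 24 on the Pax6-/- arrays, against 23, 23 and 25 on the wild type arrays.

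**Figure D2:**
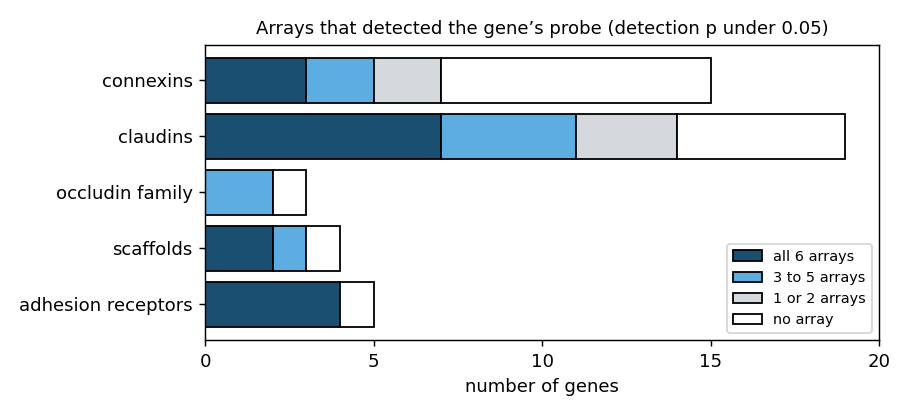
Number of genes in each junction family by how many of the 6 arrays detected the gene's probe at a detection p under 0.05, taking the measured probe with the highest mean or, for genes not measured, the probe detected most often. Of the 46 genes, 16 were detected on all 6 arrays and 16 on none.

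Gja1 encodes connexin 43, a gap junction protein of lens epithelium and many other tissues. Its normalised log2 signal was 12.23, 12.28 and 12.13 on the Pax6-/- arrays, against 12.70, 12.55 and 12.65 on the wild type arrays. All 3 Pax6-/- values lay below all 3 wild type values, and the arrays of each genotype lay close together (SD 0.08 in each, n = 3). Before normalisation the signals were 4730, 3910 and 4270 in Pax6-/-, against 7210, 6930 and 7160 in wild type. The mean signal over all probes was also lower on the Pax6-/- arrays, at 240, 182 and 228, against 244, 260 and 240, though Pax6-/- replicate 1 equalled wild type replicate 3. The normalised Gja1 difference was -0.42 (SE 0.24), or 1.33-fold lower in Pax6-/-, and did not pass limma's test (adjusted p = 0.627, 95% interval -0.98 to 0.14). It was -0.44 within slide 1 and -0.46 within slide 2. With median centring of the arrays it was -0.65, in a setting where the median of all genes was -0.20. Each array value averaged 26 to 50 beads, with a bead standard error of 2.19% to 3.90% of the signal, and beads of an array are not replicates.

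Gja1 is also made by mesenchyme and neural tissue. Of 13 markers of mesenchyme and neural crest, 9 were measured, with 4 positive and 5 negative differences. Their median difference was -0.01. Their summed linear signal was 1615 to 1783 in Pax6-/- and 2157 to 2729 in wild type, where Pdgfra was the brightest marker and weighs most in the sum. Pdgfra, at -1.89 (SE 0.33), and Col6a2, detected on no Pax6-/- array and kept through wild type alone, were the markers with the smallest p. Sox10 and Tcf21 were detected on no array. The part of these cells in the Gja1 difference was not tested. In such bulk samples, fewer cells of a type and less RNA per cell cannot be told apart.

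The other measured connexins gave smaller or less steady differences. Gjc1, the gene of connexin 45, read 10.87, 11.22 and 11.03 in Pax6-/-, against 10.84, 10.83 and 11.09 in wild type, with overlapping genotypes and a difference of 0.12 (SE 0.25). Its other measured probe gave 0.21 (SE 0.26). Gjb2 encodes connexin 26, found in many epithelia.

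Gjb2 read 4.90, 7.33 and 5.71 on the Pax6-/- arrays, against 6.30, 7.91 and 8.06 on the wild type arrays. The genotypes overlapped because Pax6-/- replicate 2 was high and wild type replicate 1 was low. The difference was -1.44 (SE 0.73, limma adjusted p = 0.593), and it was -2.12 without Pax6-/- replicate 2, -0.90 without Pax6-/- replicate 1, -0.19 within slide 1 and -2.27 within slide 2. The second measured Gjb2 probe had the opposite sign, at 0.92 (SE 0.70), with 5.49, 7.47 and 4.56 in Pax6-/- and 5.0, 4.60 and 5.16 in wild type. Both probes were highest in Pax6-/- on replicate 2. The probes thus do not settle a direction for Gjb2.

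Gjb6, the gene of connexin 30, was detected on 1 Pax6-/- and 2 wild type arrays and read 4.67, 4.63 and 6.79, against 4.62, 6.20 and 6.38. Its 3 high arrays were the 3 of slide 2, across both genotypes, and the difference changed sign from -0.37 to 0.26 with the slide as a block. Gja4, the gene of connexin 37, a connexin of arterial endothelium and of oocytes, read 5.07, 6.06 and 4.75 in Pax6-/-, against 4.63, 4.71 and 4.90 in wild type. Pax6-/- replicate 2 was the highest of these, and without it the difference of 0.55 (SE 0.38) was 0.17. Gjd3 was detected on 2 Pax6-/- arrays and on no wild type array and was not tested. It read 4.65, 5.73 and 5.04 in Pax6-/-, against 4.57, 4.52 and 4.5 in wild type. The means were 5.14 and 4.53. Set against the lowest detected signal of each wild type array, the Pax6-/- mean was 1.24-fold higher. That mean includes Pax6-/- replicate 1, where Gjd3 was not detected, so the fold is not a strict lower bound. This fold rested on Pax6-/- replicate 2, and without that array was 1.01-fold, a check chosen after seeing the data.

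Cldn11 had the largest positive difference and the smallest p of the members measured. It encodes a claudin known for the tight junctions of myelin and of Sertoli cells. Its signal was 9.21, 9.70 and 9.52 on the Pax6-/- arrays, against 7.04, 8.45 and 8.53 on the wild type arrays. All Pax6-/- arrays were above all wild type arrays, and wild type replicate 1 was well below the other wild type arrays. Means were 9.47 ± 0.25 in Pax6-/- and 8.01 ± 0.84 in wild type (SD, n = 3). The difference was 1.47 (SE 0.45, 95% interval 0.41 to 2.53), or 2.77-fold higher in Pax6-/-, and did not pass over all probes (limma adjusted p = 0.427). Without wild type replicate 1 it was 0.99, with adjusted p = 0.754, and it was 2.42 within slide 1, which holds that array, and 1.03 within slide 2. The 7 measured markers of optic vesicle and neural tissue had summed signals of 1033 to 2209 in Pax6-/- and 1155 to 2300 in wild type. Sox2 weighs most in the wild type sums. Differences were 3 positive and 4 negative, and none passed limma's test. Those with the smallest p were Pax2 at 2.53 (SE 0.76), Lhx2 at 1.13 (SE 0.42), Sox2 at -0.99 (SE 0.40) and Hes5 at -0.46 (SE 0.33). Pax2 was higher and Sox2 lower on every Pax6-/- array, against 7.21% and 10.3% of all measured genes. The part of such tissue in the Cldn11 difference was not tested.

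Cldn12, a claudin of many epithelia, was lower on every Pax6-/- array. It read 10.36, 10.17 and 10.29 in Pax6-/-, against 10.94, 10.39 and 10.84 in wild type. The nearest arrays of the genotypes were 10.36 and 10.39, so the groups stood apart only narrowly. The difference was -0.45 (SE 0.27, limma adjusted p = 0.633), with -0.67 within slide 1 and -0.33 within slide 2.

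Cldn6 is a claudin of embryonic epithelia and pluripotent cells and was well detected on every array. It read 11, 10.70 and 10.67 in Pax6-/-, against 10.75, 10.81 and 10.56 in wild type. The genotypes overlapped, and the difference was 0.08 (SE 0.25, limma adjusted p = 0.923, 95% interval -0.51 to 0.68). Cldn7, a claudin of epithelial cell sides, gave the same difference of 0.08 (SE 0.31), with 7.99, 8.37 and 8.23 in Pax6-/- and 8.31, 8.42 and 7.61 in wild type. The sign of both turned under median centring of the arrays, where Cldn6 was -0.10 and Cldn7 -0.07. These small values give no direction for either gene.

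Cldn8, a barrier claudin of the kidney collecting duct, read 5.30, 5.90 and 6.19 in Pax6-/-, against 4.96, 5.09 and 5.48 in wild type. The genotypes overlapped by 1 array in each, and the difference was 0.62 (SE 0.33, limma adjusted p = 0.609). Cldn3, an epithelial barrier claudin, read 5.69, 7.74 and 4.99 in Pax6-/-, against 4.88, 5.58 and 5.33 in wild type. Pax6-/- replicate 2 was high alone, and the difference of 0.88 (SE 0.68) was 0.08 without that array. Differences of the remaining measured claudins were 0.28 for Cldn2, a pore-forming claudin of leaky epithelia, 0.22 for Cldn9, -0.01 for Cldn23, -0.45 for Cldn4 and -0.47 for Cldn16, with SE of 0.27 to 0.60. Except for Cldn9, each of these was undetected on at least 1 array.

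**Figure D3:**
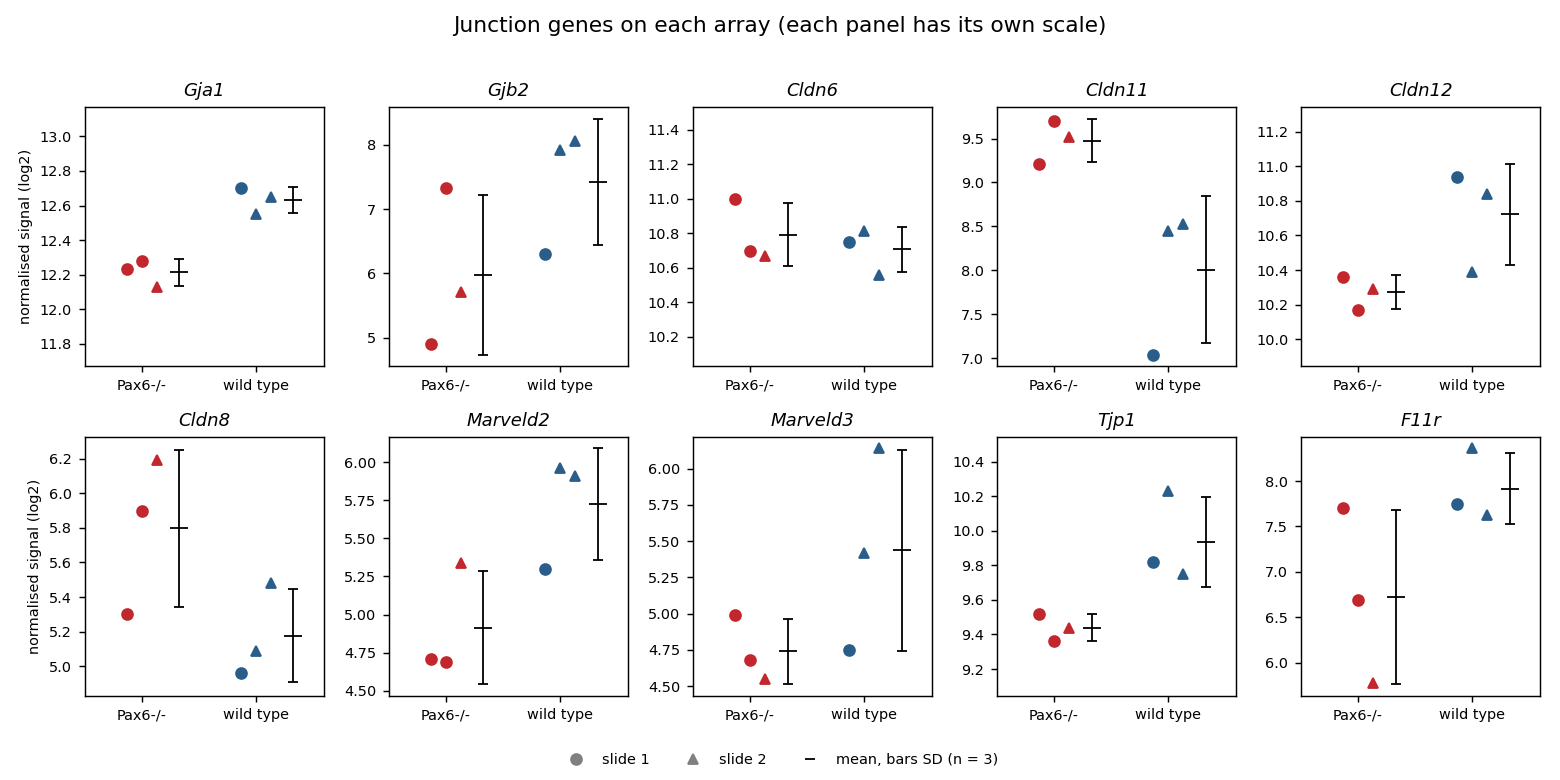
Normalised log2 signal of 10 junction genes on each array, with Pax6-/- in red and wild type in blue, circles for slide 1 and triangles for slide 2, and mean ± SD (n = 3) as black bars, each panel on its own scale. Gja1, Cldn11, Cldn12 and Tjp1 show no overlap of the genotypes, while Cldn6 lies between 10.56 and 11 throughout.

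Marveld2, Marveld3 and F11r had negative differences that did not pass limma's test. Marveld2 encodes tricellulin, which seals the corners where epithelial cells meet. It read 4.71, 4.69 and 5.34 in Pax6-/-, against 5.30, 5.96 and 5.91 in wild type, and was detected on 1 Pax6-/- array and on all 3 wild type arrays. The genotypes overlapped by Pax6-/- replicate 3 and wild type replicate 1. The difference was -0.81 (SE 0.33, unadjusted p = 0.0415 and adjusted p = 0.527 by limma) and -0.60 within each slide, and -0.44 with a background offset of 50. Marveld3, a further protein of this family, was detected on 1 Pax6-/- and 2 wild type arrays and read 4.99, 4.68 and 4.55, against 4.75, 5.42 and 6.14, a difference of -0.69 (SE 0.40). It was 0.09 within slide 1 and -1.23 within slide 2, so the slides did not give it the same sign, and -0.34 without wild type replicate 3.

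F11r encodes JAM-A, an immunoglobulin-type adhesion molecule of tight junctions that endothelium and blood cells also carry. It read 7.70, 6.69 and 5.78 in Pax6-/-, against 7.75, 8.36 and 7.63 in wild type. Pax6-/- replicate 1 lay among the wild type arrays and the other Pax6-/- arrays lay below them. The difference was -1.19 (SE 0.51, limma adjusted p = 0.545), with -1.68 when Pax6-/- replicate 1 was left out, -0.72 when Pax6-/- replicate 3 was left out, -0.56 within slide 1 and -2.21 within slide 2. Of 13 endothelial markers 8 were measured, 6 with negative and 2 with positive differences, and their summed signal was 250 to 701 in Pax6-/- and 937 to 1311 in wild type. Among them was Cldn5, the claudin of endothelium that the member list leaves out, at -2.16 (SE 0.76), while Kdr and Eng were detected on no array. Cdh5 and Esam, with negative differences, were detected on no Pax6-/- array. They passed the detection filter only through wild type, which favours a negative sign. The part of endothelium in the F11r and Gja4 values was not tested.

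Tjp1 encodes ZO-1, the scaffold that links claudins and connexin 43 to actin. Its signal was 9.52, 9.36 and 9.44 on the Pax6-/- arrays, against 9.82, 10.23 and 9.75 on the wild type arrays. The genotypes did not overlap, and the Pax6-/- arrays lay closer together than the wild type arrays (SD 0.08 and 0.26, n = 3). The difference was -0.49 (SE 0.26), or 1.41-fold lower in Pax6-/-, and did not pass (limma adjusted p = 0.609). It was -0.38 within slide 1 and -0.55 within slide 2, and -0.34 without wild type replicate 2, the highest array.

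The cingulins, cytoskeletal linkers of the junction plaque, had positive differences on their best probes. Cgnl1, the gene of paracingulin, read 9.96, 10.09 and 9.98 in Pax6-/-, against 9.12, 9.98 and 9.78 in wild type, a difference of 0.38 (SE 0.31). A second Cgnl1 probe gave -0.80 (SE 0.41), with the Pax6-/- arrays below all wild type arrays, and the last measured probe gave 0.00 (SE 0.37), so the probes did not share a direction. Without wild type replicate 1, the lowest array, the difference on the best probe was 0.13. Cgn, the gene of cingulin, read 6.52, 5.77 and 7.51 in Pax6-/-, against 6.42, 4.68 and 6.50 in wild type. Its difference was 0.73 (SE 0.63), with -0.27 within slide 1 and 1.92 within slide 2. It was 0.14 without wild type replicate 2 and 0.28 without Pax6-/- replicate 3.

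Nectins are adhesion receptors of adherens junctions that help to place tight junctions. Nectin3, which pairs with Nectin1 between the pigmented and non-pigmented layers of the mouse ciliary epithelium, read 9.80, 10.32 and 9.31 in Pax6-/-, against 9.20, 9.34 and 9.30 in wild type. Its difference was 0.53 (SE 0.32), and 0.28 without Pax6-/- replicate 2, the highest array. Within the slides it was 0.86 and -0.01. A second Nectin3 probe gave 0.60 (SE 0.30), with all Pax6-/- arrays above all wild type arrays, while the remaining probe gave -0.33 (SE 0.46). Nectin1 was at 0.07 (SE 0.40) and Nectin2 at -0.43 (SE 0.42), each with other measured probes of both signs. Neither gene separated the genotypes, and no nectin passed the test.

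**Figure D4:**
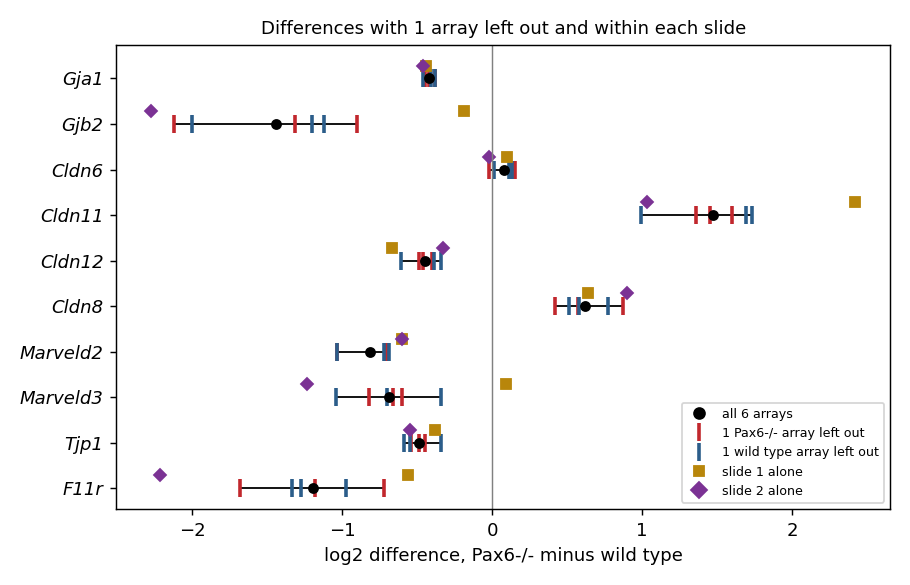
Log2 difference, Pax6-/- minus wild type, of 10 junction genes with all 6 arrays (black), with each array left out in turn (red ticks for Pax6-/- arrays, blue for wild type) and within each slide (squares and diamonds). Gja1 stays between -0.46 and -0.38 when an array is left out, while Gjb2 runs from -2.12 to -0.90.

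Members detected on every array varied less between replicates than the others. The 16 members detected on all 6 arrays had a median SD of 0.27 within Pax6-/- and 0.30 within wild type. The other 9 measured members had 0.61 and 0.71, and none of them separated the genotypes. Of the 4 members without overlap all were detected on every array, a group in which 8.79% of all measured genes were higher and 9.76% lower on every Pax6-/- array.

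The sequence upstream of the gene start is shown for the higher gene Cldn11 and for Gja1 and Tjp1, the genes of a channel and of the scaffold that binds it, which were lower. Each window holds the 250 bases before the start in RefSeq, build GRCm38.p6, read 5′ to 3′ along the gene: Cldn11 at chr3:31149670-31149919 on the plus strand, Gja1 at chr10:56377050-56377299 on the plus strand and Tjp1 at chr7:65371245-65371494 on the minus strand. Capitals mark letters that match, on either strand, any of 5 short motifs. The E-box CAGGTG is bound by Snail and Zeb factors. The sequence GGGCGG is known as the GC box. The motif TATAAA is the core of the TATA box. The letters TGANTCA are the AP-1 motif, and CCAAT is bound by the factor NF-Y. No marked matches overlap each other. The AP-1 and CCAAT motifs were added after these windows had been read.
Cldn11: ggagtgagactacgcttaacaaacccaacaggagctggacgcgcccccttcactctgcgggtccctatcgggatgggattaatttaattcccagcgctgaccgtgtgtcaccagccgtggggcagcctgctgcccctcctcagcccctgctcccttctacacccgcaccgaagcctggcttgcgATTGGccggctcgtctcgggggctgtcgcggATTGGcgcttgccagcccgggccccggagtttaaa
Gja1: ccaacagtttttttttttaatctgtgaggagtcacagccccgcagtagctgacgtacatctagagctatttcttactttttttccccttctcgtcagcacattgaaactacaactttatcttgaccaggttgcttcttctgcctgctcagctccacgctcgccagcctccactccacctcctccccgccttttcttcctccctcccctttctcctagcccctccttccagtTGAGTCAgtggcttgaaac
Tjp1: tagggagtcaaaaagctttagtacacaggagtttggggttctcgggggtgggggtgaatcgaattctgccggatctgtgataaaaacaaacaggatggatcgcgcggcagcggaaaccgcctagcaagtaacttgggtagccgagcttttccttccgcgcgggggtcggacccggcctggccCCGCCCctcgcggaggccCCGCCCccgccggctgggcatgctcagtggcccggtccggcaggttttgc
The Gja1 window held 1 TGANTCA match, which begins 19 bases before the start, and 6.75% of the 32851 promoter windows of this length held that motif. The Tjp1 window held 2 GC boxes, beginning 68 and 50 bases before the start, where 32.7% of all windows held at least 1, as did 69.6% of the 23 windows of measured junction members. Those 23 windows came from 19 genes. The other motifs were in 26.1% (CAGGTG), 13% (TATAAA), 13% (TGANTCA) and 21.7% (CCAAT) of them, and no share was tested. The Cldn11 window held 2 CCAAT matches, beginning 66 and 35 bases before the start, a motif in 33.8% of all windows. CAGGTG, in 17.2% of all windows, and TATAAA, in 12.4%, matched in none of the 3 windows. None of the 5 motifs matched in both the Gja1 and the Tjp1 window, and the window of Cldn12, which was also lower, was not examined. A match of letters is a description, not a site shown to be used.

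The polarity complexes and further scaffolds of the junction were read from a list of 49 names, of which 44 were on the platform and 37 measured. Differences were positive in 14 and negative in 23, with a median of -0.15, against -0.07 for all measured genes. None passed limma's test, and 4 were higher and 4 lower on every Pax6-/- array, against 7.21% and 10.3% of all measured genes. The 4 with the smallest p were Tjap1, a tight junction associated protein (0.73, SE 0.26), the membrane-bound scaffolds Magi3 (1.00, SE 0.38) and Magi1 (0.95, SE 0.38), and Jam3, an adhesion molecule of the same family as F11r (-0.86, SE 0.33). Tjap1, Magi3 and Magi1 were higher and Jam3 lower on every Pax6-/- array, with adjusted p-values of 0.488 to 0.527. Afdn, the gene of afadin, which ties nectins to actin, was at -0.58 (SE 0.28) and Pard3, a polarity scaffold recruited to tight junctions, at 0.90 (SE 0.41). The last 2 were named after their values were seen. Of the pannexins, channel proteins related in shape to connexins, Panx1 was measured, at -0.48 (SE 0.45), and Panx2 and Panx3 were detected on no array.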

How the data were processed

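Per the labels' protocols, microdissected tissue was pooled by genotype, amplified as cDNA and labelled with biotin, and the titles gave each sample's group and number and the chip its slide. The deposited table held, per the file headers, the bead-averaged intensity of each probe, its detection p-value, and other columns with bead numbers and bead standard errors. The submitters' processing notes name GenomeStudio without a version. The authors' processed intensity values, made by a method that the sources do not state, served as an alternative.

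Signals were background-corrected with neqc (offset 16, negative controls inferred from detection p-values), quantile normalised and put on the log2 scale (limma 3.58.1, R 4.3.3). The offset compresses differences of dim probes. Probes with a detection p under 0.05 on at least 3 arrays were kept, 21971 of 45281. Genotype was fitted with lmFit and eBayes, and adjusted p-values are limma's, by Benjamini-Hochberg over all kept probes. The fit was tested on simulated data. Levels of different probes were used only to choose the probe of a gene and in the summed signals, where bright probes weigh most. For each gene, named from the platform annotation, the kept probe with the largest mean was used. By rule, values on every array were given for Gja1, Cldn6, Tjp1, members without overlap and the 8 with the smallest p, and up to 4 genes with the smallest p were named from other lists. Other per-array values and markers were chosen after they were seen. The members and lists were chosen with earlier results of these data known. Promoter windows came from RefSeq, where 19 of the 25 measured members had one. Alternatives covered background, normalisation, the authors' values, detection, blocks for slide or replicate, weights for arrays, the variance prior, probe averaging and each array left out.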

Additional observations from a re-analysis of the deposited data

How the results depend on the processing

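Over the 25 measured members, 466 values were computed under the alternatives, of which 432 kept their sign, 34 changed it and 0 passed limma's test. Gja1, Tjp1, Cldn11, Cldn12, Cldn8, Cldn9, F11r, Gjb2 and Marveld2 kept their sign under each one run. The cause of the changes was not tested. Probes called over the whole array numbered 2, and 6 with no detection filter, 0 with detection on all 6 arrays, 0 with the slide as a block, 17 with array weights, 4 with a trended and robust prior, 21 genes after averaging probes and 0 to 2 with an array left out. Members higher without overlap numbered 2 of 25 with median centring, 4 of 46 with no filter, where undetected genes count, and 2 to 5 with an array left out. Those lower numbered 5 of 46 with no filter and 3 to 6 with an array left out. No share of all genes is given for median centring or no filter, so those counts cannot be set against a background. With an array left out, 9.86% to 13.0% of all measured genes were higher and 13.9% to 19.4% lower without overlap, since fewer arrays have to separate. Median centring moved the median of all genes to -0.20 and that of the members to -0.07, which is 0.13 above it, against 0.14 in the main setting. The members' median was -0.24 to 0.11 with an array left out, the lowest without Pax6-/- replicate 3, and -0.13 within slide 1.

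Signs that changed were, within slide 1, Cgn (-0.27), Cldn2 (-0.07), Cldn7 (-0.13), Gjb6 (0.03), Marveld3 (0.09) and Nectin1 (-0.78). Within slide 2 they were Cldn23 (1.11), Cldn3 (-0.46), Cldn6 (-0.02), Gja4 (-0.05), Gjb6 (0.50), Nectin2 (0.48) and Nectin3 (-0.01). Under median centring they were Cldn23 (0.10), Cldn6 (-0.10), Cldn7 (-0.07), Gjc1 (-0.06) and Nectin1 (-0.07). With probes averaged Cgnl1 was at -0.14 and Nectin1 at -0.03, with array weights Cldn23 at 0.17 and Gjb6 at 0.01, with the slide as a block Gjb6 at 0.26, and with no background correction Cldn23 at 0.06. With an array left out, ranges that crossed 0 were -0.96 to 0.08 for Cldn16, -0.40 to 0.48 for Cldn23, -0.76 to 0.04 for Cldn4, -0.02 to 0.15 for Cldn6, -0.17 to 0.24 for Cldn7 and -0.24 to 0.34 for Nectin1.

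The replicate numbers gave no clear pairing of the samples: deviations of same-numbered arrays correlated at 0.06, 0.05 and 0.02, against -0.06 to 0.03 for arrays of different number. Wild type replicates 1 and 2 correlated best with their own number, and wild type replicate 3 did not. With the replicate block 0 probes were called. The number of arrays limits the precision, with a median SE of 0.38 for a member.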

Other observations

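Regulators of epithelial junctions were read from a list of 23 names, of which 18 were measured, with 10 positive and 8 negative differences and a median of 0.04. None passed limma's test, and 1 was higher and 1 lower on every Pax6-/- array, against 7.21% and 10.3% of all measured genes. Zeb2, a repressor of epithelial genes, had a difference of -0.81 (SE 0.27, adjusted p = 0.457) and was the lower gene. Grhl2, a grainyhead factor that activates claudin and cadherin genes in mouse epithelia, had a difference of 0.49 (SE 0.27, adjusted p = 0.618) and was the higher gene. Snai3 and Snai1, of the Snail repressor family, were at -1.24 (SE 0.75) and 0.44 (SE 0.32), with both genotypes overlapping. Summed signals of the surface epithelium markers were 9030 to 10334 in Pax6-/- and 8377 to 9020 in wild type, ranges that nearly met. The brightest marker, Esrp1, at 0.10 (SE 0.34), weighs most in these sums. Differences were 9 positive and 1 negative among 10 measured, where 44.5% of all measured genes were positive. On every Pax6-/- array 2 were higher and 0 lower, against 7.21% and 10.3% of all measured genes. None of the 10 passed limma's test. Primitive erythroid markers varied within each genotype, with summed signals of 3270 to 17535 in Pax6-/- and 6670 to 16424 in wild type. Of 10 lens placode markers, with the targeted gene Pax6 among them, 7 were measured. All 7 were lower on every Pax6-/- array, against 10.3% of all measured genes, and none passed limma's test. Pitx3 was detected on no Pax6-/- array and so passed the detection filter only through wild type. Summed signals of the 7 were 1589 to 2158 in Pax6-/- and 3623 to 4022 in wild type. The brightest probe, that of Pax6, weighs most in these sums.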
